A study of Mus musculus with 6 samples.

Results

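A set of genes that mark the pigmented epithelium of the eye were followed across 6 libraries of whole mouse retina, and all 10 of them were found by symbol among the 32285 genes of the count table. They were chosen by name for their role, with earlier results of these data known. Rpe65 and Lrat encode enzymes of the visual cycle, Rgr and Rrh opsins of the epithelium, Ttr a carrier of thyroid hormone and retinol-binding protein, Best1 an anion channel, Tyr, Pmel and Mlana proteins of the melanosome, and Mitf a transcription factor of pigment cells. All 10 passed the filter on low counts, a sum of 10 or more over the libraries, and were tested.

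The libraries came from C57BL/6J wild-type pups at PN18, 3 from the OIR-CIH group and 3 from the OIR-Norm group. Every pup had been kept with its mother in 75% O2 for 5 days from PN8, which removes capillaries from the central retina, and was returned to room air at PN13 (oxygen-induced retinopathy, OIR). OIR-CIH pups then received chronic intermittent hypoxia for 10 h a day, as 266 cycles of 135 s in which O2 fell from 20.95% to 5% and recovered, whereas OIR-Norm pups received the same gas flow with constant O2. The dissection isolated the retina, and no step for removing epithelium that stays attached was described. There was no group without OIR, so each comparison is between OIR retinas only. Cages were allotted to the groups at random, and the litter, cage and dissection order of each retina are not given in the sources used here.

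The retinal pigment epithelium is a single sheet of pigmented cells that lies against the tips of the photoreceptors. After a photon has converted 11-cis-retinal to its all-trans form, retinol is carried into the epithelium, esterified by LRAT, turned into 11-cis-retinol by RPE65, oxidised and returned to the photoreceptors. Its melanin granules are built on PMEL fibrils and filled with pigment by tyrosinase. The same melanosome genes are used by melanocytes of the choroid, the vascular coat outside the epithelium, while Rgr is also expressed in Müller glia.

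Promoter sequences of 4 members are shown because 3 of them, Rpe65, Lrat and Rgr, had nearly the same profile over the libraries, whereas Tyr, a pigment gene, had another. Each line gives the 250 bases before the annotated start from RefSeq (GRCm38.p6), 5′ to 3′ on the strand of the gene, at chr3:159598931-159599180 on the plus strand for Rpe65 and, on the minus strand, at chr3:82903975-82904224 for Lrat, chr14:37049015-37049264 for Rgr and chr7:87493513-87493762 for Tyr. Bases just after the start were found in a transcript of the gene for Rpe65, Lrat and Tyr but not for Rgr. The start and orientation of the Rgr window were therefore not checked in this way. Capitals mark CATGTG or TAATCC or the reverse complement of either. CATGTG is the core of the M-box, which MITF binds, and TAATCC is a core bound by OTX2 and related homeodomain factors.
Rpe65: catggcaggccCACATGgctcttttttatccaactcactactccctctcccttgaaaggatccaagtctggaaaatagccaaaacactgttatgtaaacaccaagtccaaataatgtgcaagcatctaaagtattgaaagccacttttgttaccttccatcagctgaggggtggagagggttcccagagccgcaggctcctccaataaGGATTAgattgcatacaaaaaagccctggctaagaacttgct
Lrat: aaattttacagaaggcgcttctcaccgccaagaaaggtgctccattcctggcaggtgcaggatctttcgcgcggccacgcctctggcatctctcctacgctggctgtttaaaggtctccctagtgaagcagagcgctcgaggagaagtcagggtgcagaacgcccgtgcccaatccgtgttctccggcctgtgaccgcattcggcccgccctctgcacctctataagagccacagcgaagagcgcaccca
Rgr: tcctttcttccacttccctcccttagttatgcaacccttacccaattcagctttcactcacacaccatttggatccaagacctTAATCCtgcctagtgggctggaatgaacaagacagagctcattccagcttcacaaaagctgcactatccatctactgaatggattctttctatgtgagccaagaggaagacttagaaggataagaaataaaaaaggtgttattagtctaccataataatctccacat
Tyr: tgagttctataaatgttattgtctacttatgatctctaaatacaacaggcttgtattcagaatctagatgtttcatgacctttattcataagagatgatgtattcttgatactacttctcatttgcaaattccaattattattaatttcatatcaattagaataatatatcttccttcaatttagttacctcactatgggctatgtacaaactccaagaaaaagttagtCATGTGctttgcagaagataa
CATGTG was found 21 bases before the start of Tyr and, as CACATG, 239 bases before that of Rpe65. TAATCC was found 167 bases before the start of Rgr and, as GGATTA, 42 bases before that of Rpe65, while the window of Lrat held neither. The table held 9 windows for 7 of the members and none for Ttr, Pmel and Mlana. CATGTG was in 2 of these 9 windows and in 12.3% of all 32851 windows of the same length, TAATCC in 4 of 9 and in 6.25%, and the E-box CACGTG in 0 of 9 and in 6.02%. These motifs do not overlap each other, and both strands were searched. A match is a description of the letters and not of binding.

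The total count was between 26289905 and 38010151 per library, so that 3 counts, taken as the floor of detection, stood for 0.114 CPM (counts scaled to the same library size) or less. Rbp3, which encodes the retinoid-binding protein that photoreceptors secrete, had means of 4650 CPM in OIR-CIH and 4790 CPM in OIR-Norm, so that the libraries held retinal RNA as labelled. One library stood apart. Lens genes summed to 613 CPM in OIR-Norm replicate 2 and to between 25.8 and 107 CPM in the other 5. Each library also held both Xist (9197 to 47119 counts) and the Y-linked Ddx3y (540 to 2068 counts). The study's methods give 3 eyes per group, so the animals behind each library are not known, and n counts libraries.

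Per kilobase of exon, with the counts scaled to the same library size (RPKM), the members spanned a wide range of levels. Ttr was the most abundant member, with a mean of 117 RPKM over the 6 libraries and a range from 72.7 to 182. Rpe65 at 19.4 RPKM (11.9 to 31.8), Pmel at 18.5 (7.56 to 37.4) and Rgr at 16.4 (10.8 to 24.5) followed with ranges that overlapped. Lrat had 4.15 RPKM (2.32 to 7.21), Mlana 2.85 (1.21 to 6.02), Rrh 2.76 (2.51 to 3.07) and Tyr 2.48 (1.41 to 3.49), again with overlapping ranges. Mitf was lower at 1.18 RPKM (highest 1.29), and Best1 was lowest of the 10 at 0.245 (0.122 to 0.339). Rbp3 had a mean of 891 RPKM on the same scale. Pmel was the one member with exons on those of neighbours, sharing 4.58% of its exonic bases with Dgka and 1.48% with Cdk2, both on the opposite strand and with at most 211 counts per library.

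**Figure D1:**
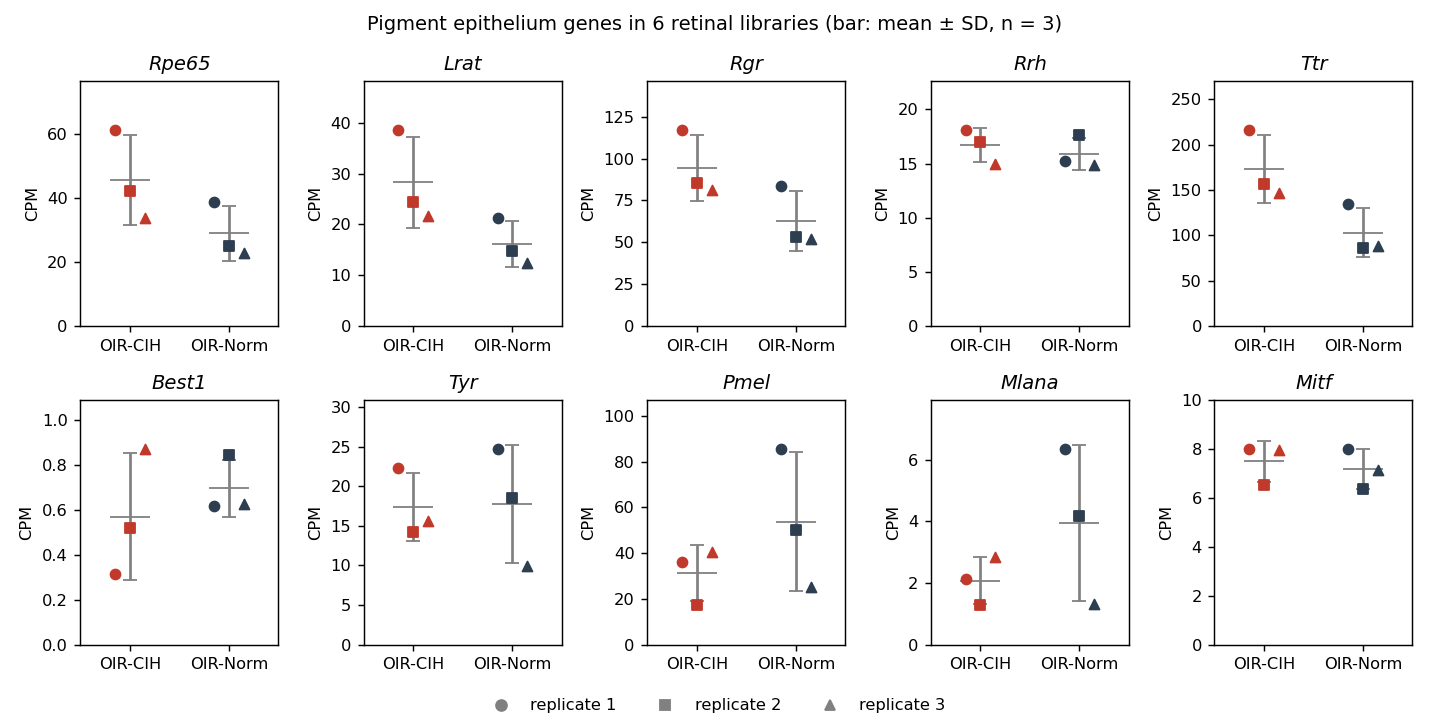
Scaled counts (CPM, TMM-scaled, linear axes from 0) of the 10 members in each library, with a marker per replicate and the mean ± SD of each group (n = 3). Rpe65, Lrat, Rgr and Ttr have higher OIR-CIH means, OIR-CIH replicate 1 is their highest library, and OIR-Norm replicate 1 is the highest for Tyr, Pmel and Mlana.

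Rpe65, Lrat, Rgr and Ttr had higher means in OIR-CIH than in OIR-Norm, by 1.57-, 1.74-, 1.51- and 1.68-fold, but none of the 4 was past the threshold of the test over all genes. Rpe65, the isomerohydrolase that makes 11-cis-retinol, had 61.4, 42.2 and 33.9 CPM in OIR-CIH and 38.9, 25.1 and 23.0 CPM in OIR-Norm. The groups overlapped, since OIR-Norm replicate 1 was above OIR-CIH replicate 3. The means were 45.8 ± 14.1 and 29.0 ± 8.66 CPM (SD, n = 3 each), and the log2 fold change was 0.65 (SE, standard error, 0.21; adjusted p = 0.267 from the quasi-likelihood test of edgeR, with Benjamini-Hochberg adjustment over 20021 genes).

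Lrat, which supplies the retinyl esters that RPE65 uses, had 38.6, 24.5 and 21.7 CPM in OIR-CIH and 21.2, 14.8 and 12.4 CPM in OIR-Norm. The groups did not overlap, although the lowest OIR-CIH and the highest OIR-Norm library were nearly equal. Its log2 fold change of 0.80 (SE 0.22, edgeR adjusted p = 0.186) was the highest of the 10. Ttr had the lowest p of the members, with 216, 156 and 147 CPM in OIR-CIH and 134, 86.3 and 88.6 CPM in OIR-Norm. Each OIR-CIH library was above each OIR-Norm library, and the log2 fold change was 0.75 (SE 0.17, edgeR adjusted p = 0.127, rank 132 of 20021). Non-overlapping groups were found for 18.4% of all genes tested and, with OIR-CIH higher, for 9.12%, and 2 of 10 members is close to the first of these shares. For Lrat and Ttr the two-sided exact permutation p was 0.1, and a design of 3 against 3 cannot go lower.

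The opsins of the epithelium differed from each other. Rgr, whose product drives light-dependent formation of 11-cis-retinal, had 117, 85.5 and 81.0 CPM in OIR-CIH and 83.3, 53.0 and 51.8 CPM in OIR-Norm, with a log2 fold change of 0.59 (SE 0.18, edgeR adjusted p = 0.228). OIR-Norm replicate 1 lay among the OIR-CIH values. Rrh, which encodes peropsin of the apical microvilli, had 18.1, 17.0 and 15.0 CPM in OIR-CIH and 15.2, 17.6 and 14.9 CPM in OIR-Norm. These ranges were almost the same, and the log2 fold change was 0.07 (SE 0.11, edgeR adjusted p = 0.817). Its highest and lowest libraries differed by 1.22-fold, against 2.27-fold for Rgr, 2.67-fold for Rpe65 and 3.11-fold for Lrat. Whether the opsins differed from each other in their change was not tested.

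The melanosome members had the opposite sign or no difference. Pmel, which forms the fibrils of the melanosome, had 36.0, 17.3 and 40.4 CPM in OIR-CIH and 85.8, 50 and 25.3 CPM in OIR-Norm. OIR-Norm replicate 3 lay among the OIR-CIH values, so the groups overlapped, and the log2 fold change was -0.78 (SE 0.36, edgeR adjusted p = 0.375). Mlana (MART-1), a partner of PMEL in melanosome formation, had 2.12, 1.28 and 2.83 CPM in OIR-CIH and 6.36, 4.17 and 1.32 CPM in OIR-Norm, from between 37 and 196 counts per library. Its log2 fold change was -0.88 (SE 0.44, edgeR adjusted p = 0.406). For each of these genes the 3 OIR-Norm libraries spanned a wider range than the difference of the means. The coefficients of variation were 56.7% for Pmel and 64.0% for Mlana.

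Tyr, the rate-limiting enzyme of melanin synthesis, had 22.3, 14.3 and 15.6 CPM in OIR-CIH and 24.8, 18.5 and 9.99 CPM in OIR-Norm, with means of 17.4 ± 4.28 and 17.8 ± 7.45 CPM (SD, n = 3 each). The highest and the lowest of the 6 libraries were both OIR-Norm, and the log2 fold change of -0.04 (SE 0.26, edgeR adjusted p = 0.964) was positive under limma and in some fits that left out a library. Mitf varied little, with 8.01, 6.52 and 7.94 CPM in OIR-CIH and 8.02, 6.38 and 7.13 CPM in OIR-Norm and a log2 fold change of 0.06 (SE 0.14, edgeR adjusted p = 0.880). Its sign turned to -0.02 without OIR-Norm replicate 2. Best1, a marker of the basolateral membrane, was close to the lower end of detection with between 8 and 33 counts per library. It had 0.314, 0.520 and 0.873 CPM in OIR-CIH and 0.617, 0.842 and 0.628 CPM in OIR-Norm, and the log2 fold change of -0.19 (SE 0.39, edgeR adjusted p = 0.861) became 0.05 without OIR-CIH replicate 1.

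Of the 10 members, 0 were called by edgeR, DESeq2 or limma (adjusted p under 0.05 and a log2 fold change past 0.5 either way), where edgeR called 0.315% of all genes tested. At an unadjusted p under 0.05 there were 4 members (Rpe65, Lrat, Rgr and Ttr) by edgeR, 4 by limma and 3 by DESeq2, against 13.4% of all genes by edgeR. The median log2 fold change of the members was 0.07, and that of all genes tested was -0.005. There were 6 members with a log2 fold change above 0 and 4 below, with 49.1% of all genes above. Libraries decided some of these values. Without OIR-Norm replicate 1, edgeR called 70 genes in all. Among these were Ttr (log2 fold change 0.98, adjusted p = 0.0124 from edgeR) and Rgr (0.85, adjusted p = 0.0257). The values of Pmel and Mlana shrank to -0.27 and -0.34 in that fit. Without OIR-CIH replicate 1, Rpe65 was at 0.39 (adjusted p = 0.596 from edgeR) and Lrat at 0.52 (adjusted p = 0.5). Without OIR-Norm replicate 2, the library with lens RNA, Rpe65 was at 0.56, Lrat at 0.75, Rgr at 0.48 and Ttr at 0.64, with adjusted p from 0.336 to 0.532 from edgeR.

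**Figure D2:**
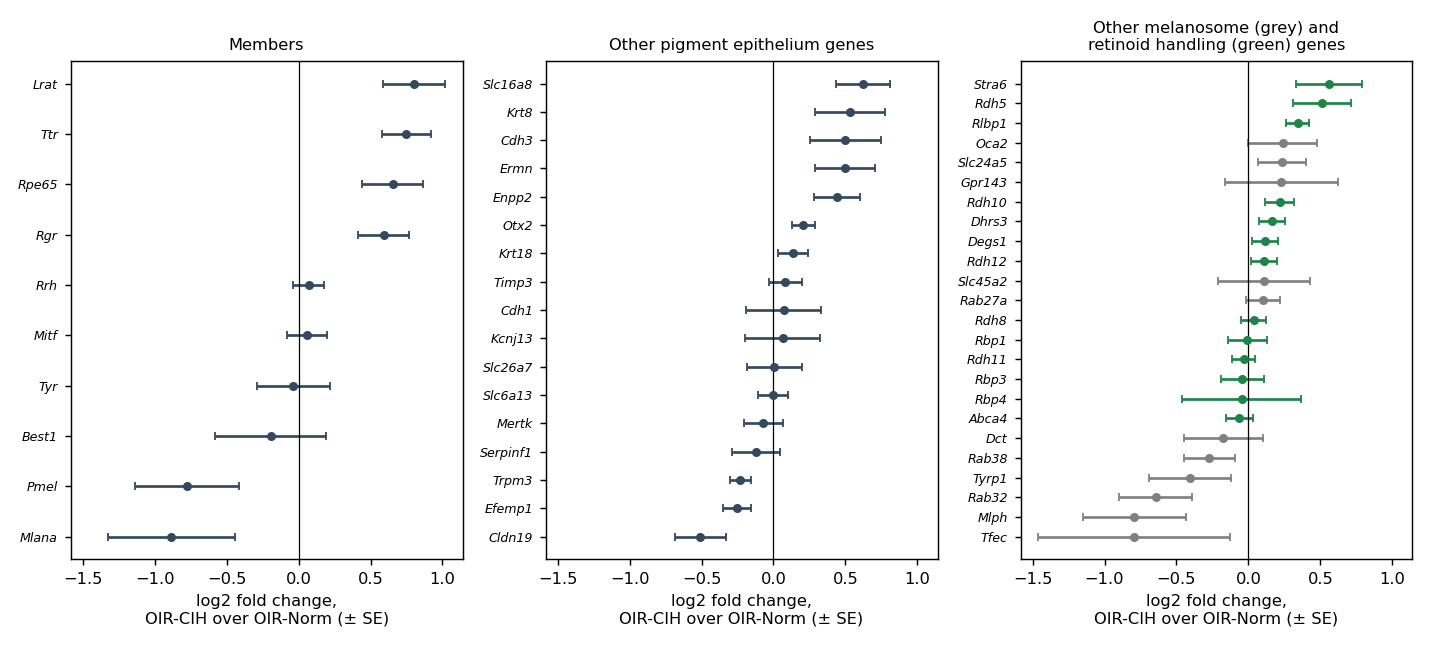
Log2 fold change of OIR-CIH over OIR-Norm with its standard error (edgeR, n = 3 per group) for the members, the other pigment epithelium genes, and the other melanosome and retinoid handling genes, sorted within each panel. Lrat, Ttr, Rpe65 and Rgr lie between 0.59 and 0.80 and Pmel and Mlana at -0.78 and -0.88, and no gene shown was called.

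Several members were high and low in nearly the same libraries. Rpe65, Lrat, Rgr and Ttr were each highest in OIR-CIH replicate 1, intermediate in OIR-CIH replicates 2 and 3 and OIR-Norm replicate 1, and lowest in OIR-Norm replicates 2 and 3. Over the 6 libraries in log2(CPM + 0.5), Pearson's r to Rpe65 was 0.987 for Lrat (exact permutation p = 0.00278, adjusted over 9 members 0.013), 0.982 for Rgr (exact permutation p = 0.00139, adjusted 0.013) and 0.968 for Ttr (exact permutation p = 0.00833, adjusted 0.025). Spearman's rank correlation was 0.943, 1.0 and 0.886, with exact permutation p of 0.017, 0.00278 and 0.033, adjusted 0.075, 0.025 and 0.1. Without the libraries farthest from the median of Rpe65 (OIR-CIH replicate 1 and OIR-Norm replicate 3), r was 0.955, 0.951 and 0.913. The permutations ran over all 6 libraries regardless of group, so a group difference shared by the genes can lower these p-values. When the group means were taken away first, r was 0.984, 0.969 and 0.969, as a description of how the genes deviated within the groups.

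The remaining members did not pass this test against Rpe65. Pearson's r was 0.602 for Tyr, 0.486 for Mitf, 0.482 for Rrh, -0.012 for Pmel, -0.032 for Mlana and -0.772 for Best1, with adjusted exact permutation p from 0.153 to 0.986. Spearman's rank correlation of these 6 genes was between -0.771 and 0.657, with adjusted exact permutation p from 0.231 to 0.803. With the group means taken away, r to Rpe65 was 0.792 for Tyr, 0.506 for Pmel, 0.474 for Mitf, 0.434 for Mlana, 0.388 for Rrh and -0.765 for Best1, so that Pmel and Mlana, near 0 over all libraries, had positive values within the groups. The deviations of Pmel likewise had r of 0.602 to those of Lrat, 0.641 to Rgr and 0.590 to Ttr, with no test. Against Pmel, a comparison added after the values had been seen, Mlana had r = 0.967 (exact permutation p = 0.00139, adjusted over 9 members 0.013) and a Spearman correlation of 1.0 (exact permutation p = 0.00278, adjusted 0.025). Without OIR-CIH replicate 2 and OIR-Norm replicate 1, the libraries farthest from the median of Pmel, this r was 0.989. Tyr had r = 0.730 to Pmel (exact permutation p = 0.096, adjusted 0.431) and a Spearman correlation of 0.771 (exact permutation p = 0.103, adjusted 0.462).

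**Figure D3:**
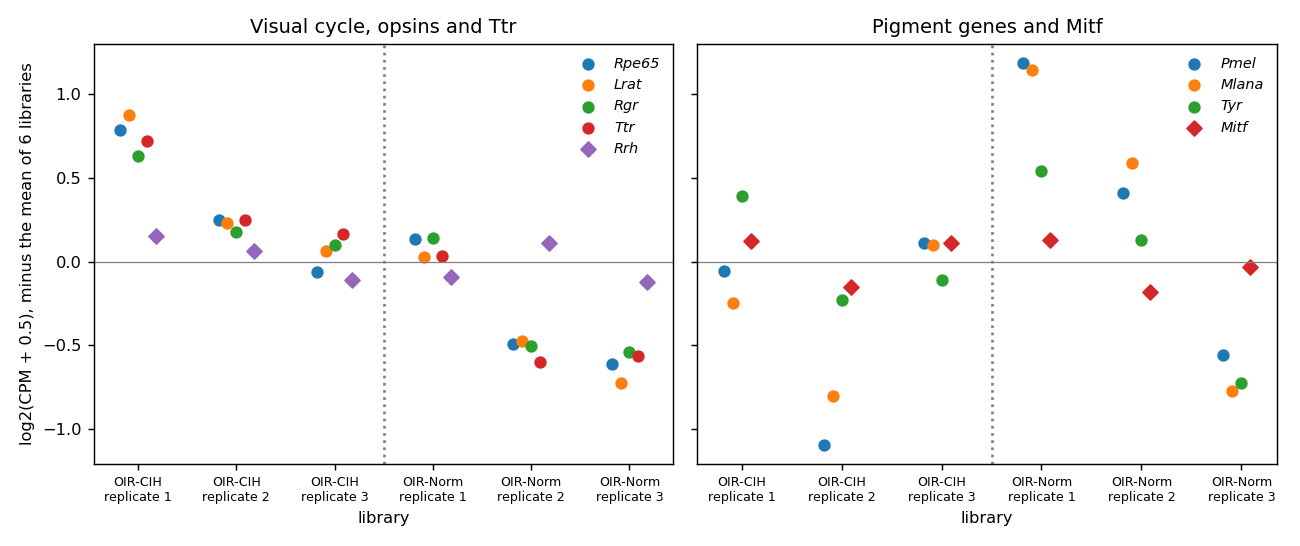
Level of each member in each library as log2(CPM + 0.5) minus its mean over the 6 libraries, with the visual cycle genes, opsins and Ttr on the left and the pigment genes and Mitf on the right (diamonds: Rrh and Mitf). Rpe65, Lrat, Rgr and Ttr are highest in OIR-CIH replicate 1 and lowest in OIR-Norm replicates 2 and 3, Pmel and Mlana are highest in OIR-Norm replicate 1 and lowest in OIR-CIH replicate 2, and Rrh and Mitf stay close to 0.

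Ratios of counts within a library, which need no scaling, were compared next. There were between 0.539 and 0.641 Lrat counts per Rpe65 count, between 1.91 and 2.39 Rgr counts and between 3.44 and 4.35 Ttr counts, so that the highest ratio was between 1.19 and 1.27 times the lowest. In the same libraries the level of Rpe65 differed by 2.67-fold. Pmel counts per Rpe65 count were 0.586, 0.411 and 1.19 in OIR-CIH and 2.2, 1.99 and 1.1 in OIR-Norm, a 5.37-fold range. Rrh counts per Rpe65 count ranged from 0.295 to 0.701. Among pigment genes, Pmel counts per Mlana count stayed between 12 and 19.1 and Tyr counts per Dct count between 0.122 and 0.154, whereas Pmel counts per Tyr count ranged from 1.21 to 3.45. Ttr and Lrat thus kept a nearly fixed proportion to Rpe65 while Pmel did not.

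Genes outside the members were ranked by their likeness to Rpe65 among the other 14799 genes with a mean of at least 1 CPM. Lrat ranked 3, Rgr 9 and Ttr 26. The 5 non-members most like Rpe65 were Pkdcc, Ermn, Ilvbl, Rfc4 and Flvcr2, with Pearson's r between 0.984 and 0.988 as a description over 6 libraries. Ermn is one of the pigment epithelium genes listed for comparison, and Flvcr2 encodes a transporter of the plasma membrane. Flvcr2 had 12.7, 8.08 and 7.54 CPM in OIR-CIH and 7.59, 5.65 and 4.96 CPM in OIR-Norm (log2 fold change 0.62, SE 0.21, edgeR adjusted p = 0.273). Pkdcc, Ilvbl and Rfc4 were likewise highest in OIR-CIH replicate 1 and lowest in OIR-Norm replicate 3, with small log2 fold changes of 0.19, 0.22 and 0.11. How many genes would reach such values without any relation was not tested.

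**Figure D4:**
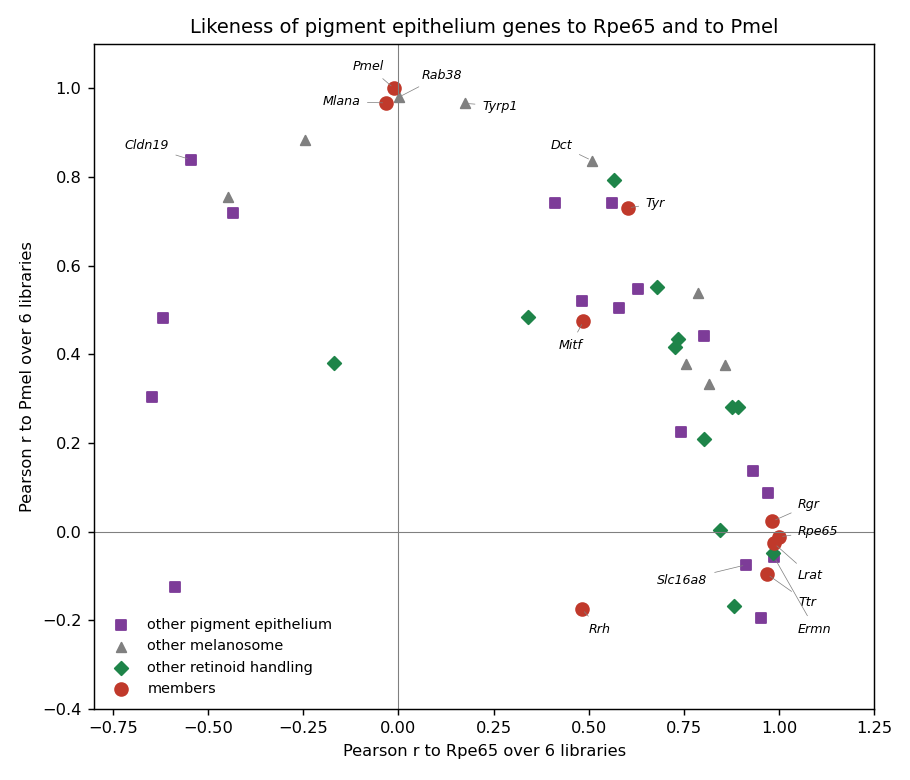
Pearson's r over the 6 libraries of each gene to Rpe65 (horizontal) and to Pmel (vertical), for the members with a mean of at least 1 CPM and 3 lists of related genes. Lrat, Rgr, Ttr, Ermn and Slc16a8 lie at the right near 0 on the vertical axis, Mlana, Rab38 and Tyrp1 lie at the top, and Tyr and Dct lie between.

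Of 17 other pigment epithelium genes, 0 were called by edgeR and 8 had an unadjusted p under 0.05, against 13.4% of all genes tested. The log2 fold change was above 0 for 11 of them, with a median of 0.07. Slc16a8, the lactate transporter MCT3 of the basolateral membrane, had 22.8, 18.3 and 17.8 CPM in OIR-CIH and 17.4, 9.23 and 11.5 CPM in OIR-Norm. The groups were just apart, and the log2 fold change was 0.62 (SE 0.19, edgeR adjusted p = 0.231). DESeq2 called it (0.63, adjusted p = 0.0365), and it is on the list of changed genes that the study drew from these samples, so that it is not independent evidence. Enpp2, which encodes autotaxin, followed Rpe65 closely (r = 0.972) with a log2 fold change of 0.44 (SE 0.16, edgeR adjusted p = 0.296). Cldn19, a claudin of the tight junctions, and Trpm3, a cation channel that is also made in the retina, had values of the other sign at -0.51 and -0.23 (adjusted p = 0.284 and 0.261 from edgeR). Cldn19 had r = -0.546 to Rpe65 and 0.839 to Pmel, again as a description.

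Among 13 other genes of retinoid handling 0 were called by edgeR and 3 had an unadjusted p under 0.05 (13.4% of all genes), with a median of 0.11. Rlbp1, which encodes the 11-cis-retinal carrier CRALBP and is also strongly expressed in Müller glia, had 556, 492 and 511 CPM in OIR-CIH and 437, 403 and 389 CPM in OIR-Norm. These groups did not overlap, and the log2 fold change was 0.34 (SE 0.08, edgeR adjusted p = 0.140). Stra6, the receptor for retinol-binding protein, was at 0.56 and Rdh5, which oxidises 11-cis-retinol, at 0.51 (adjusted p = 0.332 and 0.318 from edgeR). Stra6 was called without OIR-Norm replicate 1 (0.96, adjusted p = 0.0249 from edgeR). Rdh10, a retinol dehydrogenase, was at 0.22 with an adjusted p of 0.373. Rdh8, Rdh12, Abca4 and Rbp3, which act on the photoreceptor side of the cycle, had log2 fold changes between -0.06 and 0.11.

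Of 11 other melanosome genes 0 were called and 2 had an unadjusted p under 0.05 by edgeR (13.4% of all genes). There were 5 log2 fold changes above 0 and 6 below among these genes. Their median of -0.18 was 0.21 without OIR-Norm replicate 1 and -0.42 without OIR-Norm replicate 3. Rab32, a small GTPase of melanosome cargo transport, and Mlph, a linker of melanosomes to myosin, had log2 fold changes of -0.64 and -0.79 (adjusted p = 0.311 and 0.371 from edgeR). Rab38 was at -0.27 and ranked 10 in likeness to Pmel. As a description, Rab38, Rab32, Mlph, Tyrp1 and Dct had a higher r to Pmel than to Rpe65. Rab27a (0.859 to Rpe65, 0.376 to Pmel), Slc24a5 (0.816 and 0.332), Oca2 (0.788 and 0.539) and Slc45a2 (0.756 and 0.377) went the other way. Tyrp1, which acts after tyrosinase, had 30.2, 18.5 and 30.3 CPM in OIR-CIH and 50.8, 36.0 and 18 CPM in OIR-Norm (log2 fold change -0.40, SE 0.29, edgeR adjusted p = 0.573). Its highest library was that of Pmel, Mlana and Tyr.

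Markers of the tissues that adjoin the epithelium were measured in the same libraries. The 8 genes of choroid and sclera summed to 49.8, 48.5 and 70.6 CPM in OIR-CIH and 82.9, 99.7 and 63.3 CPM in OIR-Norm, and 7 of the 8 had a log2 fold change below 0 (median -0.57). None was called by edgeR, with 4 at an unadjusted p under 0.05 (13.4% of all genes), while DESeq2 called Col1a2 and Ogn, both on the study's own list. Col1a2, Ogn, Fmod and Col3a1, which encode matrix proteins, were at -0.57, -0.61, -0.57 and -1.01 (adjusted p from 0.186 to 0.353 from edgeR). Of 4 melanocyte genes Pax3 was below the minimum count and was not tested, and Sox10, Mc1r and Erbb3 were at 0.32, 0.21 and -0.51 without being called. Sox10, a defining gene of melanocytes that glia also use, had between 1.01 and 1.61 CPM. Mc1r, the melanocortin receptor, had 17.0, 14.1 and 14.2 CPM in OIR-CIH and 15.2, 12.1 and 11.9 CPM in OIR-Norm. As a description, r to Rpe65 was 0.964 for Mc1r (rank 31), 0.936 for Sox10 (rank 86) and -0.745 for Erbb3. All 11 lens genes tested had a log2 fold change below 0 (median -1.89), a median that was 0.55 without OIR-Norm replicate 2. Crygs, Crybb1, Cryba1 and Bfsp1 had the lowest p among them (adjusted p from 0.308 to 0.358 from edgeR).

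Of the 15 retina markers 0 were called and 2 had an unadjusted p under 0.05 by edgeR (13.4% of all genes), with a median of 0.11. Lhx1 of horizontal cells and Nrl of rods had the lowest p, at log2 fold changes of 0.42 and 0.34, followed by Gad1 and Tfap2b of amacrine cells at 0.18 and 0.19. In bulk RNA a different number of epithelial cells and a different amount of RNA per cell cannot be told apart. How much epithelium stayed on each retina was not measured, and its part in the correlation of Lrat, Rgr and Ttr with Rpe65 was not tested.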

How the data were processed

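Stranded mRNA libraries were made from 250 ng of total retinal RNA. With STAR 2.7.9a the authors mapped and counted the reads, joined the per-library gene counts into 1 table and deposited these raw counts without normalization or filter. The methods name an Ensembl release of a later mouse genome build than GRCm38, which the submitters' processing notes name. The build used for counting is not settled by the sources used here. Which strand column was kept is not given in the sources used here. Symbols and exon lengths came from GENCODE M21 (GRCm38) by gene identifier (32158 of 32285 matched), and the lens gene Lim2 was not analysed here.

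Counts of genes with a total of at least 10 (20021) were scaled by TMM and tested with edgeR 4.0.16 (quasi-likelihood, R 4.3.3), OIR-CIH against OIR-Norm, 3 libraries each, with no covariate. A call needed a Benjamini-Hochberg adjusted p under 0.05 and a log2 fold change past 0.5 either way. The standard error is the log2 fold change over the square root of F. The scripts were tested on simulated data. DESeq2 1.42.0, limma 3.58.1 on log2(CPM + 0.5), other scalings and filters, a replicate block and leaving out each library were alternatives. Correlations were tested by all pairings of the libraries, regardless of group. P-values of the group comparison rest on the spread between libraries, which may in part be technical, and floors cover counting error only. Those of the correlations rest on the pairings of the libraries. All pairs of replicates differed by more than counting noise (chi-square per degree of freedom from 10.79 to 21.91).

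Members, lists and tests were chosen with earlier results of these data known. Genes named are the members, the called genes of each list or else at most 4 with the lowest p, and the 5 most like Rpe65. Dct, Ddx3y, Xist, Rdh8, Rdh12, Abca4, Rbp3, Pax3, Dgka, Cdk2, Rab27a, Slc24a5, Oca2 and Slc45a2 were named after their values were seen.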

Additional observations from a re-analysis of the deposited data

How the results depend on the processing

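The number of genes called was 63, and 135 with DESeq2. Leaving out each library gave 29 as the lowest number (OIR-CIH replicate 1 left out) and 97 as the highest (OIR-Norm replicate 3 left out). Members called were 0, from 0 to 2 in the fits without 1 library (2 of 70 genes called without OIR-Norm replicate 1) and 4 with a replicate block.

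With the replicate number as a block Rpe65, Lrat, Rgr, Ttr and the lens gene Crygs were called (4 members at log2 fold changes from 0.61 to 0.80 with adjusted p from 0.00252 to 0.019, and 1 lens gene), and 68 genes in all. Whether the numbers pair the libraries is not known, and nothing in the labels says that a number marks a litter or a day. Deviations of same-numbered libraries correlated at 0.1, 0.093 and -0.178 over all genes. Values over all genes cannot decide whether a smaller set of genes is paired.

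DESeq2 called 1 gene of the other pigment epithelium list (Slc16a8) and 2 of choroid and sclera, where edgeR called 0. Without 1 library, calls went from 0 to 1 for the other pigment epithelium, other retinoid handling, and choroid and sclera lists. The count of members like Rpe65 was 3, and from 0 to 3 without 1 library, where r stayed between 0.940 and 0.987 for the 3 in the fits that lost the call; 5 libraries allow few permutations.

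The log2 fold change of Tyr turned to 0.036 with limma and 0.026 with the block, and was between -0.33 and 0.28 without 1 library. That of Best1 was between -0.71 and 0.05 and that of Mitf between -0.015 and 0.149. Pearson's r to Rpe65 was between -0.283 and 0.21 for Pmel and between -0.453 and 0.175 for Mlana. The cause was not tested. Best1 had the fewest counts of the members, between 8 and 33 per library, and what depth adds to its spread was not tested.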
